A study of Mus musculus with 4 samples.

Results

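Type I interferons are secreted when cells sense foreign or misplaced nucleic acid. They bind a receptor made of IFNAR1 and IFNAR2, whose kinases JAK1 and TYK2 phosphorylate STAT proteins, and STAT2 joins IRF9 in a complex that binds response elements in the promoters of interferon-stimulated genes. The products of those genes sense nucleic acid, block viral entry and translation, or feed back on the pathway, and resting lymphocytes carry some of their transcripts at a basal level. The genes described here are 37 listed type I interferon response genes. They were listed by name, but with earlier results of these data known, so the list was not chosen blind to them. Of these, 36 had a row in both mRNA matrices, out of 32285 genes measured, and Mx1 was not analysed here.

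The cells were splenic B cells that carried MD4, a transgenic B cell receptor for hen egg lysozyme (HEL). CD45.1+ Dock8 wt/wt MD4 cells were transferred, together with CD45.2+ MD4 cells of genotype Dock8 wt/wt or, in the other mice, cpm/cpm (DOCK8-deficient), into CD45.1+ wild-type recipient mice aged 8 to 12 weeks, which were immunized with sheep red blood cells bearing HEL. All CD45.2+ cells, of both genotypes, also carried BCL2.Tg, a B cell-restricted transgene for the survival protein BCL2, and no CD45.1+ cell did. On day 8, B cells from 3 mice per group were labelled with a hashtag antibody for each mouse, and HEL+CD95+ cells were sorted into a CD45.2+ and a CD45.1+ pool, each of which gave 1 mRNA and 1 hashtag library. The sort, the BCL2 transgene and the library therefore cannot be told apart. The sort kept activated and germinal center (GC) cells only, and non-activated B cells were not sampled.

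By role, the 36 measured genes fall into transcription (Irf7, Irf9, Stat2), the ubiquitin-like modifier Isg15 and its protease Usp18, the translation-blocking Ifit family (Ifit1, Ifit2, Ifit3), the effector enzymes Oas1a, Oasl2, Rsad2 and Samhd1, and the nucleic acid sensors Ifih1 and Zbp1. The nuclear DNA-binding PYHIN family is represented by Ifi203, Ifi209, Ifi213 and Mndal, the Schlafen family by Slfn5 and Slfn8, and the tripartite motif family by Trim30a and Trim30d. Bst2, which tethers virions to the cell membrane, and Ifitm3, which blocks viral fusion, act at membranes. Ly6a, Ly6e and Ms4a4c encode surface proteins, Dtx3l, Parp9 and Parp14 belong to the ADP-ribosylation machinery, and Ifi47 encodes an interferon-inducible GTPase. Ifi27l2a, Phf11b, Rnf213, Rtp4 and Xaf1 complete the list.

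Promoter sequences from RefSeq on GRCm38.p6, from 250 bases before to 50 bases after each start, were present for 28 of the 36 genes. The core of the interferon-stimulated response element, GAAANNGAAA on either strand, stood in a promoter of 17 of the 28 (60.7%), against 1079 of all 27025 genes with such a sequence (3.99%). The windows below show it for members of the Ifit, Isg15, membrane, Schlafen and PYHIN families to which the results return, on the strand of the gene, with every core in capitals. In all of them the core lay upstream of the RefSeq start.
Ifit1, chr19:34640765-34640833, plus strand: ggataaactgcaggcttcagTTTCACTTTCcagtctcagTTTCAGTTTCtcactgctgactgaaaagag
Ifit3, chr19:34583353-34583436, plus strand: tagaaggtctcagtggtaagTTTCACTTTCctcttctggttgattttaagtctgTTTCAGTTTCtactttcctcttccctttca
Isg15, chr4:156200855-156200916, minus strand: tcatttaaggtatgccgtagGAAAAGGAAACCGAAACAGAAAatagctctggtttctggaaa
Bst2, chr8:71537567-71537622, minus strand: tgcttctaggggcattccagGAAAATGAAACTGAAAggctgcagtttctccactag
Slfn5, chr11:82951927-82951976, plus strand: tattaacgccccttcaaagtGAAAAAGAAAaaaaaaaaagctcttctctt
Slfn8, chr11:83020829-83020878, minus strand: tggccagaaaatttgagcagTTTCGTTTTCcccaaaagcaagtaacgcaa
Ifi203, chr1:173942498-173942547, minus strand: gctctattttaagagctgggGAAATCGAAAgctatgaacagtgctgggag
Ifi213, chr1:173599316-173599365, minus strand: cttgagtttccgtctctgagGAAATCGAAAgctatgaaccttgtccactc

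Ifit1 and Ifit3 each held 2 separate cores, of the same letters in the same order. Isg15 held 3 cores that overlap one another and Bst2 held 2 that overlap. Ifi203 and Ifi213 shared the same 10-letter core, and the Ifi203 window was matched letter for letter by one upstream of Mndal, its neighbour. In the GENCODE annotation none of the printed windows lay in an exon, and the windows of Slfn5 and Ifi203 lay inside the annotated span of their genes, that of Slfn5 also inside Slfn5os. Cores were also found for Ifih1, Ifitm3, Mndal, Oas1a, Phf11b, Rsad2, Stat2, Trim30a and Trim30d. None was found in this window for Dtx3l, Ifi209, Ifi47, Ifit2, Irf7, Irf9, Ms4a4c, Oasl2, Rnf213, Samhd1 and Xaf1, and Ifi27l2a, Ly6a, Ly6e, Parp14, Parp9, Rtp4, Usp18 and Zbp1 had no entry.

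The cells kept numbered 9692, with 6488 from the CD45.2+ sort and 3204 from the CD45.1+ sort, and they held 70292368 unique molecular identifiers (UMIs, each a counted transcript). The hashtag caller left fewer CD45.2+ cells than the study states. Per mouse, the CD45.2+ Dock8 wt/wt cells numbered 2007, 2607 and 1672, the CD45.2+ cpm/cpm cells only 57, 44 and 101, and the CD45.1+ cells 339 to 947. Some 6 barcodes were kept in both sorts. In the CD45.2+ cpm/cpm cells, Ddx3y, a Y-linked gene, had a UMI in 30.7% to 33.3% of cells, against 1.46% to 2.03% of CD45.2+ wt/wt cells, and Xist in 57.4% to 70.5% against 97.4% to 98%. Each of the 3 cpm/cpm hashtags thus held cells with a Y-linked transcript and cells with Xist, and genotype and donor sex cannot be told apart. Xist in these cells also differed by class, at 110 to 189 CPM in E/A/M and 385 to 747 CPM in DZ. Whether the cells with Xist were DOCK8-deficient cells or wt/wt cells under a cpm/cpm hashtag was not tested. Dock8 itself stood at 112, 120 and 105 CPM (UMIs of a gene scaled to the total UMIs of the mouse, sort and class) in wt/wt and at 105, 110 and 96.9 CPM in cpm/cpm CD45.2+ cells, which does not test the label, since the allele was not read in these data. The B cell genes Cd79a (1996 to 2547 CPM) and Ms4a1 (1583 to 1868 CPM) were present outside PC/PB in every mouse and sort, and Fas, which encodes the sorted CD95, ranged from 50.9 to 98.4 CPM, with E/A/M the lowest of those classes (19.9 to 31.7 CPM in CD45.1+ cells, against 112 to 154 CPM in LZ). Natural killer cell markers (6 genes) summed to 84.2 CPM in cpm/cpm mouse 3 and to at most 8.27 CPM in the other mice, and all 6 were detected in it; their part in the results was not tested.

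Cells were grouped by clustering without 140 interferon-related genes, so no member defined a class, and clusters were named from the study's marker genes. The classes are light zone-like (LZ), dark zone-like (DZ), plasma cell or plasmablast-like (PC/PB), and early GC, activated or memory-like (E/A/M) cells. The classes rest on other genes of the same cells, and the tests between them take the mouse as the replicate and as a block. Levels are given as CPM of UMIs summed per mouse. The assay counts transcript 3′ ends, so a level does not scale with transcript length. Fold changes are log2 values from edgeR's quasi-likelihood fit, with Benjamini-Hochberg adjustment over all genes tested and a threshold of 0.05.

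Averaged over classes and sorts, the levels of the 36 genes spanned about 3 orders of magnitude. The highest were Ly6e (932 CPM), Ifi27l2a (583 CPM), Ly6a (429.6 CPM), Samhd1 (260.2 CPM), Mndal (233 CPM) and Ifi203 (183 CPM). The lowest were Rtp4 (1.59 CPM), Ifih1 (1.45 CPM), Oasl2 (1.43 CPM), Oas1a (0.997 CPM), Ifit1 (0.966 CPM) and Rsad2 (0.745 CPM). Of all 36, 9 were under 5 CPM, 16 between 5 and 50, 6 between 50 and 200, and 5 at 200 or more. The genes best known as induced by interferon, the Ifit, Oas and Rsad2 group, thus lay at the bottom of the order, and the top held surface and PYHIN genes. E/A/M was the class with the highest mean level for 28 of the genes, LZ for Dtx3l, Irf7, Parp9 and Samhd1, and PC/PB for Bst2, Isg15, Ly6a and Zbp1.

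**Figure D1:**
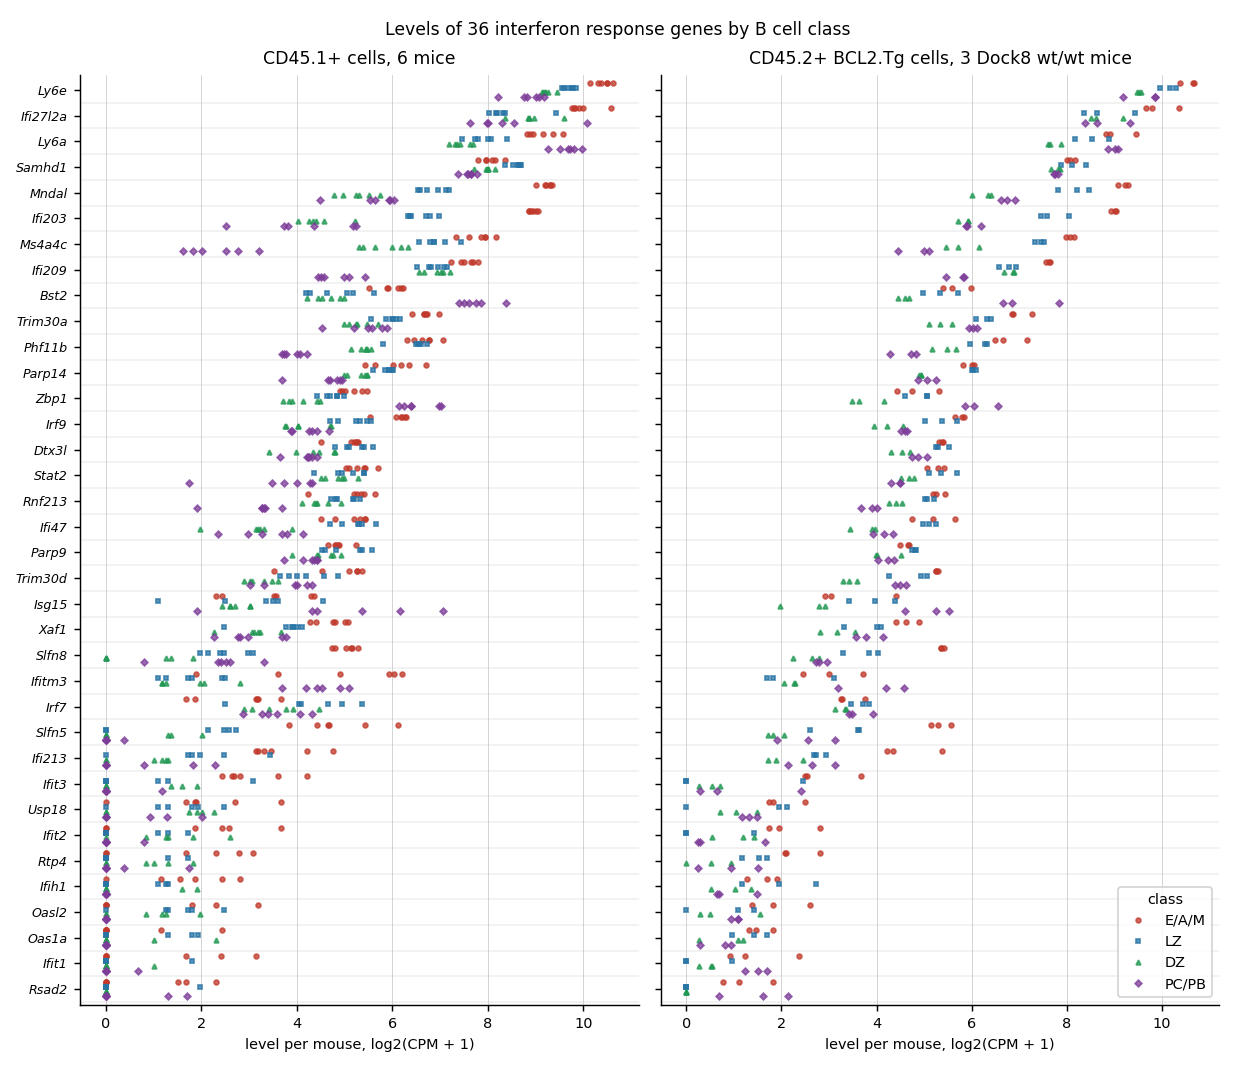
Level of each of the 36 measured genes on a log scale, log2(CPM + 1), with a point for each mouse and a colour and shape for each class, in CD45.1+ cells of 6 mice (left) and CD45.2+ cells of 3 wt/wt mice (right). Genes are ordered by mean level, from Ly6e (932 CPM) to Rsad2 (0.745 CPM), and the PC/PB points of Bst2 and Zbp1 lie to the right of the other classes.

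E/A/M cells carried more of these transcripts than LZ cells in both sorts. In CD45.1+ cells of all 6 mice, 26 of the genes were expressed highly enough to test, and 20 rose and 2 fell in E/A/M against LZ. Over all 7722 genes tested, 34.3% were called, 18.7% higher and 15.6% lower. In CD45.2+ wt/wt cells of 3 mice, 34 were tested, 17 rose and none fell at an adjusted p of 0.05, against 23% called of 10677 genes, 11.6% higher and 11.5% lower. The median log2 fold change of the tested members was 1.02 in CD45.1+ and 0.71 in CD45.2+ cells, where that of all genes tested lay between −0.06 and 0.01 in every comparison. The CD45.1+ LZ sums held 400407 to 873776 UMIs per mouse. Slfn5, Slfn8 and Ifitm3 had only a few UMIs in them and passed the filter on low counts through other classes. Ifit3 did so in CD45.2+ cells. These calls are among those counted but are given with no weight.

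The PYHIN genes, nuclear DNA-binding proteins, rose together, with 3 of 3 tested higher in CD45.1+ and 4 of 4 in CD45.2+ cells. Mndal ranged from 512 CPM over a median of 611 to 647 CPM in CD45.1+ E/A/M cells and from 92.4 over 114 to 145 CPM in LZ cells, so that no mouse overlapped. It rose by 2.65 (SE 0.11, adjusted p = 2.33e-29). In CD45.2+ wt/wt cells it read 596, 624 and 539 CPM in E/A/M against 353, 224 and 297 CPM in LZ, a rise of 1.19 (SE 0.12, adjusted p = 1.41e-08). Ifi203 went from 79.9 to 125 CPM in CD45.1+ LZ cells to 462 to 529 CPM in E/A/M, again with no overlap, a rise of 2.65 (SE 0.12, adjusted p = 9.87e-27). In CD45.2+ cells Ifi203 was at 262, 174 and 189 CPM in LZ and at 520.0, 515 and 484 CPM in E/A/M, a rise of 1.46 (SE 0.11). Ifi213, a low member tested in CD45.2+ cells only, read 19.3, 17.6 and 40.3 CPM in E/A/M against 5.59, 5.45 and 6.66 CPM in LZ, a rise of 2.22 (SE 0.34, adjusted p = 1.75e-05). Mndal and Ifi203 lie next to each other on chromosome 1 with overlapping annotations on 1 strand, so reads may be split between them uncertainly. The same may hold where a member has relatives of similar sequence (Trim30, Schlafen, Ifit, Ly6, Ifitm, Oas1 and Ifi27l2). Dtx3l and Parp9 overlap too, but on opposite strands.

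The Schlafen genes, of a growth-regulatory family, both rose in both sorts. Slfn5 lay between 13.2 and 68.7 CPM (median 24.4) in CD45.1+ E/A/M cells and between 0 and 5.62 CPM in LZ cells, a rise of 3.58 (SE 0.39, adjusted p = 2.67e-11). The CD45.2+ wt/wt values were 38.1, 34.6 and 46.3 CPM against 11.2, 5.03 and 11.4 CPM, a rise of 2.40 (SE 0.26). Slfn8 lay between 25.5 and 37.8 CPM in CD45.1+ E/A/M and between 2.96 and 7.49 CPM in LZ cells, a rise of 3.02 (SE 0.32, adjusted p = 8.58e-12). Its CD45.2+ values were 39.7, 41.7 and 39.9 CPM against 13.4, 8.81 and 15.2 CPM, a rise of 1.99 (SE 0.20). All E/A/M values of both genes stood above all LZ values of the same sort. In CD45.1+ cells both genes passed the filter on low counts only through E/A/M, so their CD45.1+ calls are given with no weight.

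Ifitm3 had the largest fold change in CD45.1+ cells, but unevenly and from a few UMIs per mouse in LZ. It passed the filter on low counts there through E/A/M and PC/PB, so the CD45.1+ call is given with no weight. Its E/A/M values ran from 2.70 over a median of 44.4 to 72.6 CPM, with wt/wt mouse 3 at 11.1 and cpm/cpm mouse 1 at 2.70 CPM, where LZ values were 1.15 to 4.62 CPM, and it rose by 3.98 (SE 0.47, adjusted p = 3.11e-10). In CD45.2+ cells it read only 4.51, 6.95 and 12.2 CPM against 2.24, 2.52 and 7.62 CPM, a rise of 1.25 (SE 0.37, adjusted p = 0.0153). That call was lost without wt/wt mouse 2 (0.89) and when cells rich in other interferon-related transcripts, defined further on, were left out (1.0), and with DESeq2 (1.21). Bst2 rose in CD45.1+ cells, from 17.2 to 47.8 CPM in LZ to 44.9 to 73.3 CPM in E/A/M (log2 fold change 1.43, SE 0.18), and was not called in CD45.2+ cells.

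Ifi27l2a, a mitochondrial or nuclear membrane protein, and the 3 surface genes rose in both sorts. Ifi27l2a ranged from 872 to 1522 CPM in CD45.1+ E/A/M and from 259 to 689 CPM in LZ cells (rise 1.87, SE 0.13), and from 888, 807 and 1302 CPM against 393, 326 and 685 CPM in CD45.2+ cells (rise 1.29, SE 0.11). In each set the wt/wt mouse 3 was the highest. Ly6a, the stem cell antigen Sca-1, went from 176 to 339 CPM in LZ to 453 to 763 CPM in E/A/M of CD45.1+ cells (rise 1.49, SE 0.10). Ly6e rose by 1.01 in CD45.1+ (SE 0.08) and 0.58 in CD45.2+ cells (SE 0.11), and Ms4a4c, a 4-transmembrane protein, by 1.203 (SE 0.12) and 0.78 (SE 0.13).

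The transcription factors did not move together. Irf9 rose in both sorts, from 24.97 to 46.2 CPM in LZ to 45.11 to 76.5 CPM in E/A/M of CD45.1+ cells (1.18, SE 0.17, adjusted p = 4.35e-08) and from 31.3, 40.3 and 50.5 CPM to 54.9, 49.4 and 56.0 CPM in CD45.2+ cells (0.54, SE 0.14, adjusted p = 0.00571). The CD45.2+ call of Irf9 was lost without wt/wt mouse 1 (0.42) or mouse 2 (0.58) and when scaled to total UMIs (0.38). Stat2 rose by 0.58 in CD45.1+ cells (SE 0.21, adjusted p = 0.0232), a call that was lost without wt/wt mouse 3 (0.57), cpm/cpm mouse 1 (0.53) or cpm/cpm mouse 3 (0.41), with DESeq2 (0.59) and when scaled to total UMIs (0.27), and it had a log2 fold change of 0.06 (SE 0.16) in CD45.2+ cells. Irf7, the factor that amplifies interferon production, fell in CD45.1+ cells by 1.02 on the log2 scale (SE 0.35, adjusted p = 0.0176), at 2.22 to 11.8 CPM in E/A/M against 4.62 to 39.9 CPM in LZ cells. The groups overlapped for Irf7, and the call was lost without wt/wt mouse 2 (−0.64), cpm/cpm mouse 2 (−0.83) or cpm/cpm mouse 3 (−0.97). In CD45.2+ cells its log2 fold change was −0.15 (SE 0.26).

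The genes most closely tied to interferon signalling were low and seldom called. Isg15 had log2 fold changes of 0.81 (SE 0.44, adjusted p = 0.152) in CD45.1+ and −0.10 (SE 0.35) in CD45.2+ cells, and Usp18 0.52 (SE 0.53) in CD45.2+ cells. Ifit3 read 4.66, 4.81 and 11.8 CPM in CD45.2+ E/A/M against 4.47, 0 and 0 CPM in LZ cells, a rise of 2.80 (SE 0.85, adjusted p = 0.016) that was lost without wt/wt mouse 2 (2.04) or mouse 3 (1.87). Ifit3 passed the filter on low counts through classes other than LZ, and its call is given with no weight. Ifit2 missed the threshold at 1.90 (SE 0.81, adjusted p = 0.0927) but passed it with no filter on low counts or without wt/wt mouse 2, and Ifit1 was not tested. Both Trim30 genes rose in both sorts. Of the ADP-ribosylation genes, 1 of 3 rose in CD45.1+ cells (Parp14, 0.49, lost with DESeq2, under total UMIs, and without cpm/cpm mouse 2 or mouse 3) and 0 of 3 in CD45.2+ cells, Ifi47 was called in neither, and Samhd1, which degrades deoxynucleotides, fell by 0.24 in CD45.1+ cells, a call lost without wt/wt mouse 1 (−0.18), cpm/cpm mouse 2 (−0.25) or cpm/cpm mouse 3 (−0.24), with interferon genes kept in the clustering (−0.20) and without the cells of highest doublet score (−0.22), and stood at 0.09 in CD45.2+ cells. Scaled to total UMIs, 15 rose and 2 fell in CD45.1+ cells, where the median log2 CPM ratio over all genes was −0.31. The E/A/M cells also held more UMIs of 11 myeloid marker genes (420 to 722 CPM in CD45.1+ E/A/M against 224 to 318 CPM in LZ, and 326 to 359 against 278 to 339 CPM in CD45.2+ wt/wt cells). Most of the list was often at 0, with 4 to 6 genes detected per mouse in CD45.1+ E/A/M and 2 to 4 in LZ cells. In CD45.2+ wt/wt cells 4 to 7 and 3 to 4 were detected. Itgam, on that list, was among the leading genes of the EarlyGC2-like B cell cluster. The part of these UMIs in the result was not tested.

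**Figure D2:**
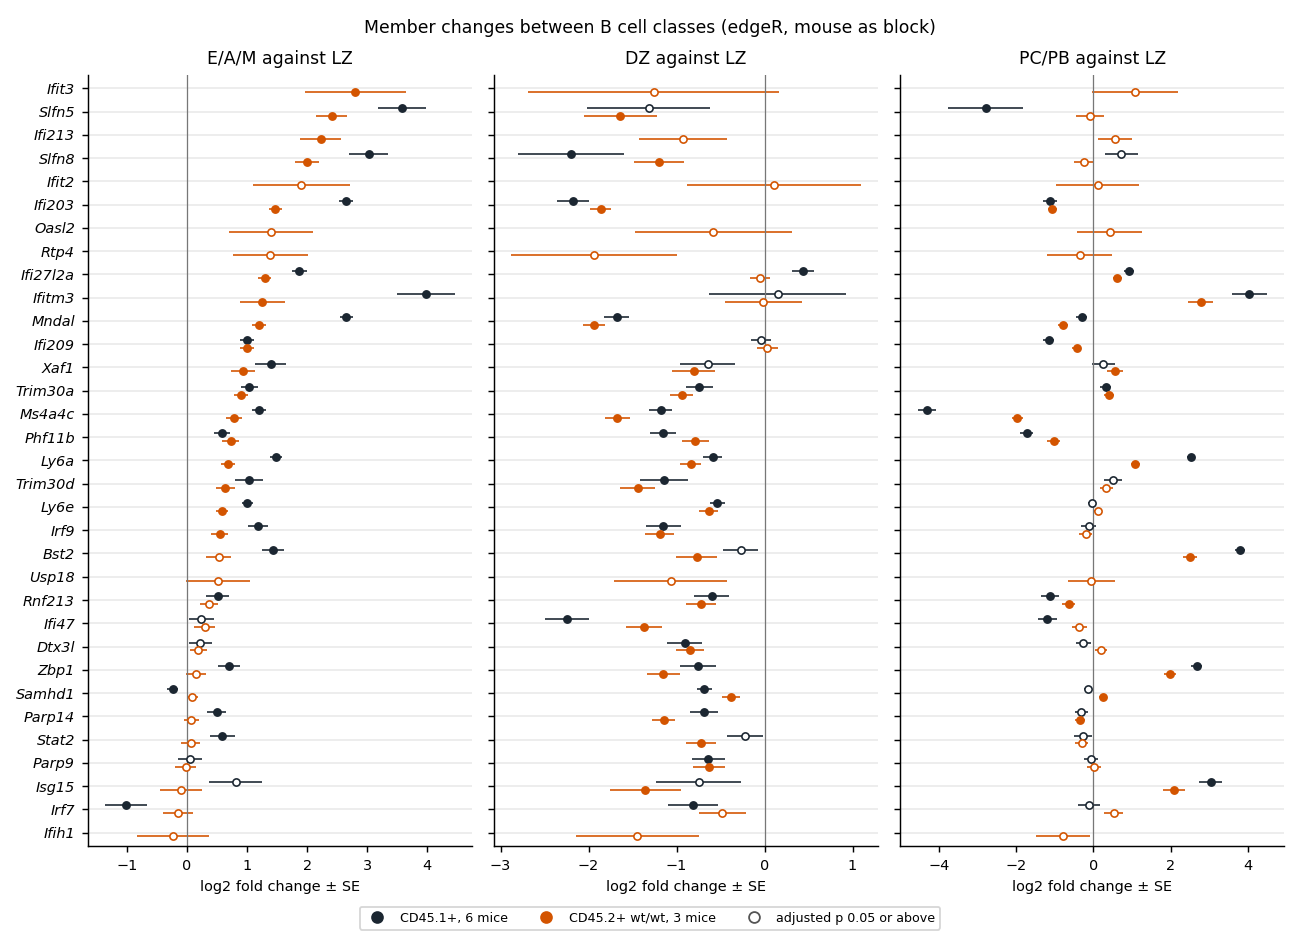
Log2 fold change of each member against LZ in E/A/M, DZ and PC/PB cells, with bars of 1 SE, for CD45.1+ cells (6 mice, dark) and CD45.2+ wt/wt cells (3 mice, orange), where filled points passed an adjusted p of 0.05 and a gene without a point was not tested. Rsad2, with no UMI in LZ cells, is left out. E/A/M values lie mostly right of 0, DZ values left of 0, and PC/PB values on both sides, with Bst2, Ifitm3, Isg15 and Zbp1 to the right and Ms4a4c and Phf11b to the left.

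DZ cells, the dividing cells of the GC, carried less of these transcripts than LZ cells. In CD45.1+ cells 18 of 26 tested members fell and 1 rose, against 45% of all genes called, 22.2% higher and 22.8% lower. In CD45.2+ wt/wt cells 22 of 34 fell and none rose, against 39.4% called, 21.4% higher and 18% lower. The median log2 fold changes of the members were −0.74 and −0.89. The 3 surface genes, the 3 ADP-ribosylation genes and both Trim30 genes fell in both sorts, though Parp9 lost its CD45.2+ call without wt/wt mouse 1 or mouse 2.

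Ifi203 had 15.3 to 36.4 CPM in CD45.1+ DZ cells, below the lowest LZ value of 79.9 CPM, and fell by 2.18 (SE 0.18, adjusted p = 1.11e-15). In CD45.2+ cells it stood at 59.5, 51.3 and 59.7 CPM in DZ against 262, 174 and 189 CPM in LZ, a fold change of −1.86 (SE 0.12). Mndal went from 92.4 to 145 CPM down to 26.4 to 52.6 CPM in CD45.1+ cells (−1.68, SE 0.15) and to 80.1, 63.1 and 83.2 CPM in CD45.2+ cells (−1.94, SE 0.13). Ifi213 stood at 2.71, 2.27 and 4.48 CPM in CD45.2+ DZ cells against 5.59, 5.45 and 6.66 CPM in LZ cells, lower in every mouse but not called (−0.93, SE 0.50, adjusted p = 0.144). Ifi209 did not follow, and read 92.6 to 146 CPM in CD45.1+ DZ cells and 90.2 to 140 CPM in LZ cells, with a call in neither sort.

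Ifi47 showed the largest fall in CD45.1+ cells, from 24.97 to 49.2 CPM in LZ to 2.95 to 14.0 CPM in DZ (−2.24, SE 0.25, adjusted p = 4.24e-11), and fell in CD45.2+ cells to 9.81, 14.8 and 14.1 CPM from 33.5, 30.6 and 37.1 CPM (−1.37, SE 0.20). Ms4a4c fell by 1.18 in CD45.1+ (SE 0.13) and 1.67 in CD45.2+ cells (SE 0.14), and Phf11b, a plant homeodomain finger protein, by 1.15 (SE 0.15) in CD45.1+ cells. Trim30d fell by 1.14 (SE 0.27) and 1.44 (SE 0.20). Slfn8, at 0 to 2.54 CPM in CD45.1+ DZ cells, fell by 2.20 (SE 0.60) there and by 1.199 (SE 0.28) in CD45.2+ cells, and Slfn5 fell by 1.64 (SE 0.41) in CD45.2+ cells. The CD45.1+ call of Slfn8 rests on a few UMIs of a gene that entered the test through E/A/M, and is given with no weight.

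Irf9 fell alike in both sorts, by 1.15 (SE 0.20, adjusted p = 3.41e-06) and 1.19 (SE 0.17, adjusted p = 1.42e-06), with every mouse lower. Stat2 fell by 0.73 in CD45.2+ cells (SE 0.17, adjusted p = 0.00106), a call that was lost without wt/wt mouse 1 (−0.51), and stood at −0.22 (SE 0.20) in CD45.1+ cells. Irf7 fell by 0.81 in CD45.1+ cells (SE 0.29, adjusted p = 0.0167), which was lost without wt/wt mouse 2 (−0.48) or cpm/cpm mouse 3 (−0.70) and with DESeq2 (−0.89), and stood at −0.48 (SE 0.27) in CD45.2+ cells. Isg15 read 2.92, 6.58 and 5.97 CPM in CD45.2+ DZ cells against 14.5, 9.65 and 19.99 CPM in LZ cells, a fall of 1.36 (SE 0.40, adjusted p = 0.00849) that was lost without wt/wt mouse 1 (−1.11), under a hashtag rule that asks only for 3 times the next hashtag (−0.57) and without the mouse as a block (−1.38), and it had −0.75 (SE 0.49) in CD45.1+ cells. Usp18 (−1.07, SE 0.64), Ifit2 (0.10) and Ifit3 (−1.26) were not called. The 1 member that rose, in CD45.1+ cells only, was Ifi27l2a (0.43, SE 0.13, adjusted p = 0.00375), a call lost without the mouse as a block (0.38); it was chosen for mention after its value was seen.

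In PC/PB cells the members split. In CD45.1+ cells 7 of 26 rose and 8 fell, against 64.5% of all genes called, 31.4% higher and 33.1% lower. In CD45.2+ wt/wt cells 10 of 34 rose and 7 fell, against 47% called, 23.3% higher and 23.6% lower, so that the shares called were near or below the background. Immunoglobulin transcripts took 34.2% to 38.3% of the UMIs of CD45.1+ PC/PB cells and 36% to 36.9% in CD45.2+ wt/wt cells, against 1.96% to 3.65% in the other classes, and the directions depended on the scaling. Scaled to total UMIs in place of edgeR's TMM factors, an alternative chosen after seeing the data, 5 members rose and 17 fell in CD45.1+ and 6 rose and 15 fell in CD45.2+ cells. The median log2 CPM ratio over all genes was −0.83 and −0.61 there.

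A set of 5 members rose under both scalings in both sorts. Bst2 lay between 168 and 333 CPM in CD45.1+ PC/PB cells and between 17.2 and 47.8 CPM in LZ cells, and rose by 3.80 (SE 0.14, adjusted p = 3.05e-33). The CD45.2+ wt/wt cells read 99.6, 114 and 228 CPM against 51.4, 30.6 and 39.0 CPM, a rise of 2.51 (SE 0.19). Under total UMIs the Bst2 values were 2.97 and 1.87. Isg15 rose by 3.04 in CD45.1+ cells (SE 0.31, adjusted p = 3.39e-13), although its PC/PB values spread from 2.75 CPM in cpm/cpm mouse 3 over a median of 30.4 to 132 CPM in cpm/cpm mouse 2, and LZ values from 1.14 to 22.5 CPM. Isg15 in CD45.2+ wt/wt cells was at 23.3, 45.0 and 37.3 CPM against 14.5, 9.65 and 19.99 CPM, a rise of 2.10 (SE 0.29), and its total-UMI values were 2.21 and 1.44.

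Zbp1, a sensor of Z-form nucleic acid, ranged from 69.7 to 128 CPM in CD45.1+ PC/PB and from 20.6 to 30.9 CPM in LZ cells (2.68, SE 0.14, adjusted p = 8.76e-25) and stood at 56.8, 65.2 and 93.0 CPM against 32.4, 23.1 and 32.4 CPM in CD45.2+ cells (1.99, SE 0.15). Ifitm3 lay between 11.9 and 33.3 CPM against 1.15 and 4.62 CPM in CD45.1+ cells (4.04, SE 0.46) and at 8.07, 17.3 and 22.7 CPM against 2.24, 2.52 and 7.62 CPM in CD45.2+ cells (2.78, SE 0.32). The CD45.1+ call of Ifitm3, which entered that test through classes where it was higher than in LZ, is given with no weight. Ly6a rose by 2.54 (SE 0.10) and 1.09 (SE 0.12), from 176 to 339 CPM in LZ to 608 to 1008 CPM in PC/PB of CD45.1+ cells. In CD45.2+ cells the Ly6a values were 517, 465 and 541 CPM against 370.0, 288 and 472 CPM, where mice overlapped between classes. For these genes the total-UMI values were 1.84 and 1.34 (Zbp1), 3.21 and 2.13 (Ifitm3), and 1.71 and 0.46 (Ly6a).

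Ms4a4c fell the most, to 2.08 to 8.25 CPM from 93.8 to 173 CPM in CD45.1+ cells (−4.32, SE 0.23, adjusted p = 1.34e-24) and to 33.2, 30.9 and 20.9 CPM from 183, 160.3 and 174 CPM in CD45.2+ cells (−1.97, SE 0.15). Phf11b fell to 11.9 to 17.4 CPM from 54.8 to 105 CPM in CD45.1+ cells (−1.73, SE 0.18). Ifi47 fell by 1.19 (SE 0.24) in CD45.1+ and Ifi203 by 1.07 (SE 0.12) in CD45.2+ cells. None of the mice overlapped for Ms4a4c or Phf11b.

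Rsad2, the antiviral radical enzyme viperin, had no UMI in LZ cells of the 3 CD45.2+ wt/wt mice and stood at 0.621, 2.07 and 3.41 CPM in their PC/PB cells. Pooled, its 28 UMIs in PC/PB cells came to 2.17 CPM, at least 3.13-fold higher than a floor of 0.693 CPM (3 counts over the LZ cells of the 3 mice). It entered the test only through the classes where it was present, so its call, 1 of the 10 counted as higher, is given with no weight. With Rsad2 at that bound the members' median in this comparison was 0.12, and in E/A/M cells, where 26 UMIs gave 1.57 CPM and at least 2.26-fold, it was 0.71. Irf7 (−0.11 and 0.52), Irf9 (−0.12 and −0.20) and Stat2 (−0.27 and −0.30) were not called in PC/PB of either sort, and neither were Usp18 (−0.05), Ifit2 (0.11) and Ifit3 (1.08) in CD45.2+ cells. Under total UMIs Irf9 (−0.95 and −0.84) and Stat2 (−1.11 and −0.94) were lower in both sorts and Irf7 was lower in CD45.1+ cells (−0.95), while Ifi27l2a, called higher in both sorts under TMM, stood at 0.10 and −0.01.

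Within the classes the clusters differed further, which is described here without a test. In CD45.1+ cells, Slfn5 averaged 55.3 CPM and Slfn8 58.8 CPM in the EarlyGC1-like cluster, against 22.96 and 19.1 CPM in the EarlyGC2-like one, and the CD45.2+ wt/wt values were 47.6 and 52.5 CPM against 33.5 and 32.6 CPM. Ifitm3 had the opposite order, at 84.8 CPM in EarlyGC2-like and 14.6 CPM in EarlyGC1-like CD45.1+ cells, and at 13.6 and 7.2 CPM in CD45.2+ wt/wt cells. The LZ class was also mixed. Ifi203 stood at 409 CPM in the LZ1-like cluster (39 cells of 3 mice) and 69.8 CPM in the LZ2-like cluster of CD45.1+ cells, and at 291 and 153 CPM in CD45.2+ cells. Mndal showed 415 against 91.6 CPM and 399 against 215 CPM, and Samhd1 the reverse, 90.6 against 409 CPM and 154 against 367 CPM.

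Single clusters stood out for other members. Ifi209 was highest among the LZ and DZ clusters in the DZ3-like, late cell cycle cluster, at 204.5 CPM in CD45.1+ and 151 CPM in CD45.2+ wt/wt cells, against 100.4 and 104 CPM in DZ1. Isg15 was highest in the PC2-like cluster of CD45.1+ cells (54.3 CPM) and stood at 35.9 CPM there in CD45.2+ wt/wt cells, and Zbp1 read 102 and 73.1 CPM. Ifitm3 was higher in the cycling plasmablast-like cluster, at 45.0 and 22.1 CPM, than in PC2, at 16.2 and 15.3 CPM. Ifi27l2a peaked in the Activated2-like cluster of CD45.2+ cells, at 2015 CPM, though that cluster held 49 cells.

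**Figure D3:**
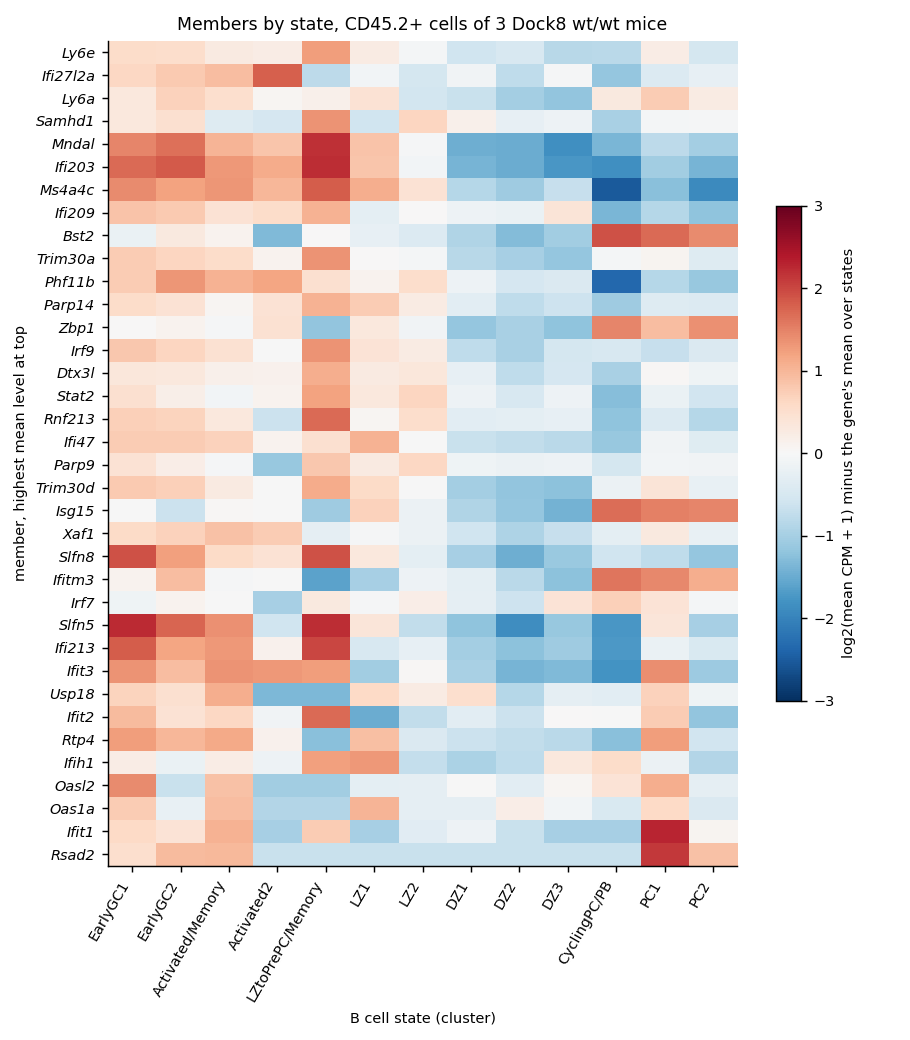
Heat map of the 36 members over the B cell clusters of CD45.2+ Dock8 wt/wt cells, as log2(mean CPM over 3 mice + 1) minus the mean of that gene over the clusters, with red above and blue below it. The E/A/M-like clusters are high for most members, the DZ-like clusters are low, and Bst2, Isg15 and Zbp1 are high in the plasma cell-like clusters.

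Summed over the members, E/A/M cells stood apart from the other classes compared here in every mouse. The cluster that fell in no class, described at the end, was not summed, though the study counts it among its light zone clusters. Pooled, it held Ly6e at 2694 CPM against 966 CPM in all other cells. Mndal stood at 981 against 248 CPM there and Ifi203 at 749 against 199 CPM, while Ifi27l2a was lower, at 354 against 638 CPM. The high sum is thus not shown to be particular to E/A/M. In CD45.1+ cells the sum was 5560.4 CPM ± 281 (SD, n = 6) in E/A/M, 2837 ± 242 in LZ, 2085 ± 243 in DZ and 2583 ± 460.1 in PC/PB. The lowest E/A/M mouse, at 5227 CPM, lay above the highest mouse of any other class, at 3341 CPM. In CD45.2+ wt/wt cells the 3 mice read 5537, 5532 and 6093 CPM in E/A/M, 3771, 3330 and 3840 CPM in LZ, 2076, 2116 and 2460 CPM in DZ, and 2793, 2791 and 2890 CPM in PC/PB. The sum is carried by its most abundant genes and does not speak for the low members. Fewer cells of a state and less RNA per cell cannot be told apart in a sum within a cluster.

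**Figure D4:**
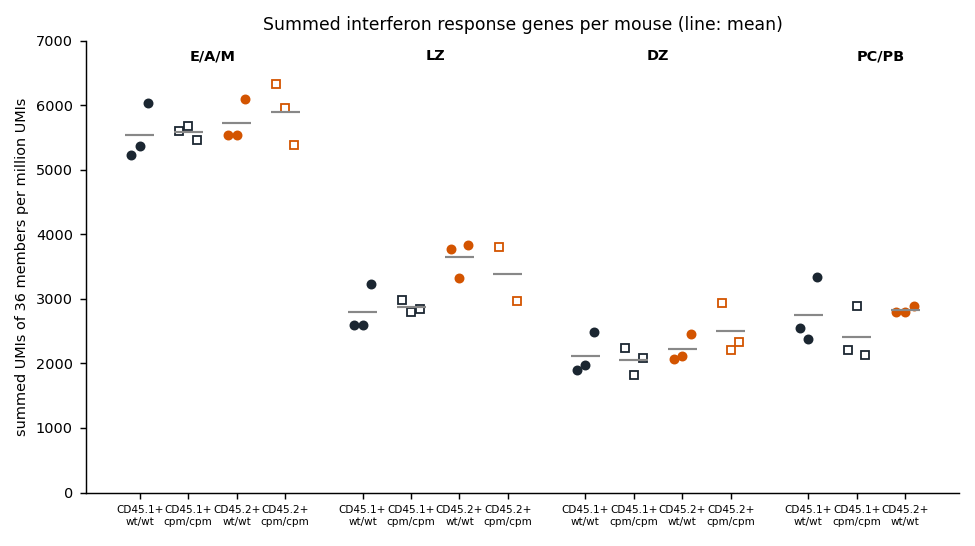
Summed CPM of the 36 members per mouse, by class and sort, with a point for each mouse (filled, wt/wt; open, cpm/cpm) and a line at the mean; mice with under 10 cells of a class have no point. The E/A/M points lie at 5227 CPM or above and those of the other classes at 3840 CPM or below. The cluster that fell in no class is not shown.

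Of the wider pathway, 67 genes were listed and 66 measured. The ligands were almost absent. Of 20 listed interferon genes, 18 had no UMI in 9692 cells, a count of 0 that allows up to 3 UMIs in the 70292368 counted, and Ifnk and Ifng had 2 UMIs each. Both chains of the type I receptor were detected. Ifnar1 ranged from 27.9 to 55.6 CPM in CD45.1+ E/A/M cells against 19.98 to 30.1 CPM in LZ cells, and rose by 0.91 there (adjusted p = 6.2e-05) and by 0.75 in CD45.2+ cells (adjusted p = 0.000106). Ifnar2 rose by 1.28 and 0.64 in E/A/M and by 2.73 and 1.57 in PC/PB cells.

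The signalling kinases and STAT proteins fell in DZ cells, with 7 of 7 lower in both sorts, against 22.8% and 18% of all genes. Tyk2 fell by 1.25 and 0.90 and Jak1 by 0.55 and 0.60. In PC/PB cells 5 of 7 were lower in both sorts, Jak1 by 2.24 and 1.06 among them. Socs1, which inhibits the receptor's kinases, fell by 1.64 and 1.46 in E/A/M cells, whereas Ddx58 (2.94 and 1.59), which encodes the RNA sensor RIG-I, and Tlr7 (3.09 and 1.30) rose. Over the whole pathway list, 13 rose and 4 fell of 37 tested in CD45.1+ E/A/M cells (background 18.7% higher and 15.6% lower) and 9 rose and 3 fell of 42 in CD45.2+ cells (background 11.6% and 11.5%). In DZ cells 4 rose and 25 fell of 37, and 5 rose and 25 fell of 42 (background 22.8% and 18% lower), and in PC/PB cells 10 rose and 16 fell in each sort, where 64.5% and 47% of all genes were called.

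The Dock8 genotype was compared in CD45.2+ cells outside PC/PB, 3 mice against 3. The groups differed in makeup. Of all CD45.2+ cells, LZ cells were 15.9% to 35.1% in cpm/cpm and 6.78% to 16.7% in wt/wt mice. E/A/M cells were 35.1% to 47.5% and 36.6% to 53.0%. The part of this in the differences below was not tested. Of 33 members tested, 0 were called by edgeR, against 0.205% of 10249 genes called. DESeq2, run on 36 members, called 0 of them and 106 of 18690 genes. Each tool gave 3 members an unadjusted p under 0.05. The median log2 fold change of the members, cpm/cpm over wt/wt, was −0.10, and single values ran from −2.25 to 0.65. The cpm/cpm sums rest on 342465 to 700331 UMIs over all classes, so members of a few CPM rest there on a few transcripts. They include the cells with Xist under the cpm/cpm hashtags, and whether those cells carried the cpm allele was not read.

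The 3 members with an unadjusted p under 0.05 were all lower in cpm/cpm cells and did not overlap between groups, and they are named after their values were seen. Of all genes tested, 7.78% were under 0.05 unadjusted and 19.3% did not overlap, and nothing particular to the members is read from these 3. Ifi27l2a read 645, 562 and 899 CPM in wt/wt and 485, 535 and 555 CPM in cpm/cpm cells (−0.53, SE 0.14, adjusted p = 0.149). Ly6a read 347, 342 and 459 CPM against 281, 244 and 324 CPM (−0.52, SE 0.13, adjusted p = 0.129). Ifi213 averaged 14.2 CPM against 5.32 CPM (−1.70, SE 0.67, adjusted p = 0.473). The transcription factors showed no called difference, with Irf7 at −0.43 (SE 0.47), Irf9 at 0.27 (SE 0.22) and Stat2 at −0.19 (SE 0.23). Isg15 stood at −0.16 (SE 0.66), Usp18 at 0.39 (SE 0.89), Ifit1 at 0.35 (SE 1.37), Ifit2 at −0.68 (SE 1.12) and Ifit3 at −2.25 (SE 1.33), and the adjusted p of all 8 lay between 0.726 and 0.978. These errors span more than a 2-fold change for the Ifit genes, so a difference of that size could not be detected at this depth. Summed, the members came to 4080.2 CPM ± 119 (SD, n = 3) in wt/wt and 4019.9 ± 342 (n = 3) in cpm/cpm cells. Of the pathway genes 0 of 40 were called, with Jak1 at 0.25, Tyk2 at −0.16, Ifnar1 at 0.07 and Ifnar2 at 0.05.

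The CD45.1+ cells were wild type in every mouse, and comparing them by the genotype of the cells they were transferred with gives the background of the mouse groups. Here too the makeup differed, with LZ cells at 30.4% to 49.0% of CD45.1+ cells in cpm/cpm and 17.5% to 38.7% in wt/wt mice. E/A/M cells were 14.5% to 19.8% and 16.4% to 29.0%. Of 26 members 0 were called by edgeR, with 3 at an unadjusted p under 0.05, against 0% of 8676 genes called. DESeq2, run on 36 members, called 0 of them and 0 of 14895 genes, with 2 members under 0.05 unadjusted. Ifi27l2a was again lower in mice that received cpm/cpm cells (−0.64, adjusted p = 0.551), with 591, 493 and 1090.0 CPM against 462, 459 and 534 CPM. Bst2 (−0.57, adjusted p = 0.551) and Mndal (−0.46, adjusted p = 0.447) were the others under 0.05 before adjustment. Irf7 (0.23), Irf9 (−0.24), Stat2 (−0.04) and Isg15 (−0.12) had adjusted p between 0.760 and 0.983. In both sorts the wt/wt mouse 3 had the highest Ifi27l2a.

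The edgeR test of whether the genotype difference itself differed between the sorts called 0 of 29 members, against 0.0318% of 9432 genes called. It gave 2 members an unadjusted p under 0.05 (Mndal, 0.35, and Ly6a, −0.40). DESeq2, run on 36 members, called 0 of them and 2 of 19058 genes, with 1 member under 0.05 unadjusted. Irf7 had an interaction of −0.68, Irf9 of 0.52 (SE 0.26), Stat2 of −0.13, Isg15 of −0.16, Usp18 of −0.15 and Ifit3 of −2.53 (SE 1.28), with adjusted p from 0.839 to 1.0.

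**Figure D5:**
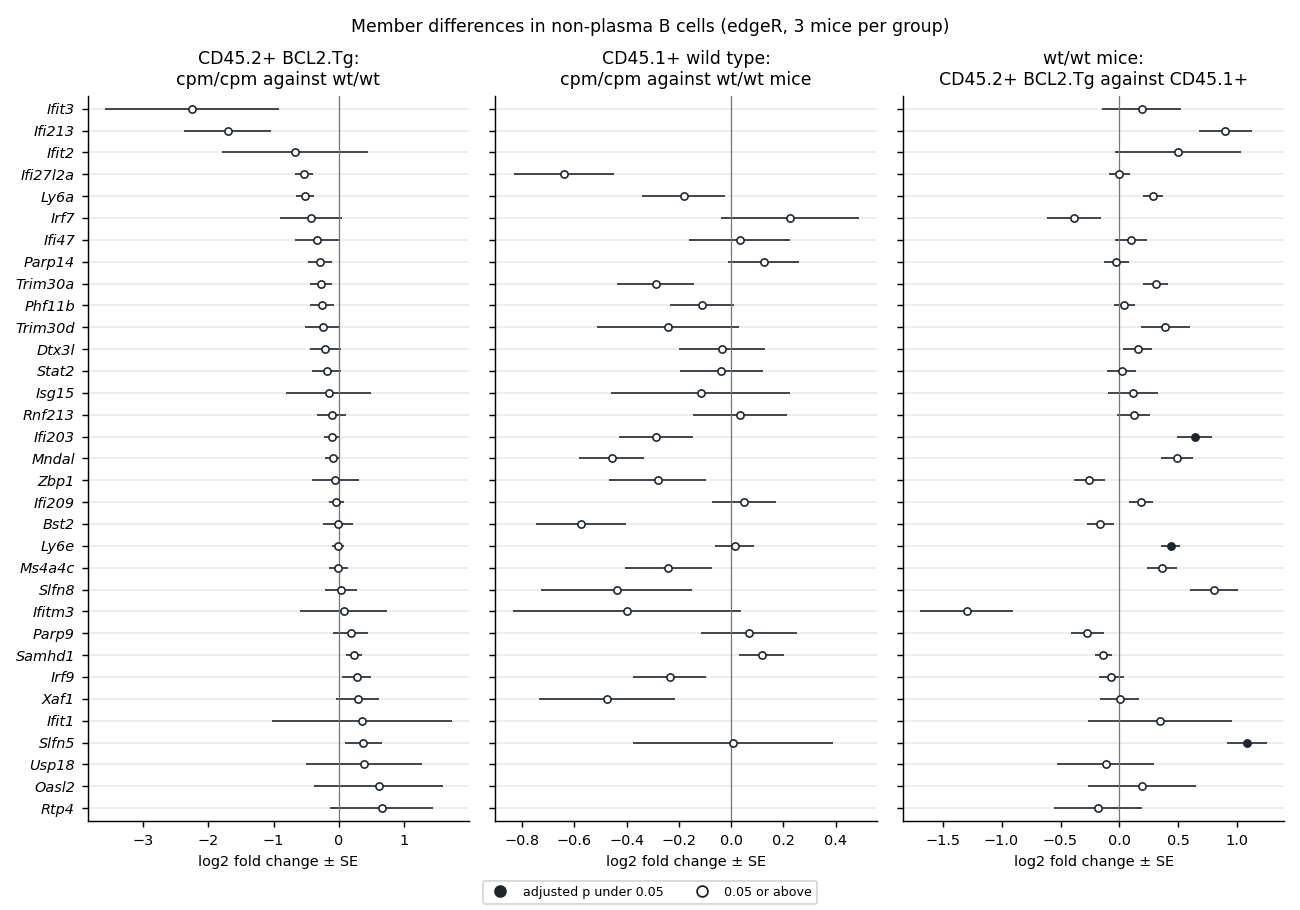
Log2 differences, with bars of 1 SE, outside PC/PB cells for the 33 members tested between genotypes: CD45.2+ cpm/cpm against wt/wt (left), CD45.1+ cells by the genotype of their partners (middle) and CD45.2+ against CD45.1+ cells of the wt/wt mice (right), each on an axis of its own. Filled points, with an adjusted p under 0.05, are Slfn5, Ifi203 and Ly6e in the right panel, and the left and middle panels hold none.

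The 2 sorts were compared within the 3 wt/wt mice, CD45.2+ over CD45.1+ cells outside PC/PB. Of 35 members 3 rose and none fell, with 10 at an unadjusted p under 0.05, against 3.57% of 10719 genes called, 1.99% higher and 1.59% lower, and 19.3% under 0.05 unadjusted. Slfn5 went from 12.2, 6.65 and 10.8 CPM to 22.9, 17.99 and 22.4 CPM (1.08, SE 0.17, adjusted p = 0.00515). Ly6e, the most abundant member, went from 843, 861 and 886 CPM to 1265, 1237 and 1026 CPM (0.43, SE 0.08, adjusted p = 0.0107). Ifi203 went from 165, 154 and 243 CPM to 328, 292 and 259 CPM (0.64, SE 0.15, adjusted p = 0.0366). Each of the 3 was higher in the CD45.2+ cells of every mouse, and 41% of all genes moved the same way in every mouse. The 8 genes fixed for description were not called, with Irf7 at −0.38 (SE 0.23), Irf9 at −0.07, Stat2 at 0.02, Isg15 at 0.11, Usp18 at −0.12, Ifit1 at 0.34, Ifit2 at 0.49 and Ifit3 at 0.19, at adjusted p from 0.389 to 0.958.

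The sorts differed in their makeup, since E/A/M cells made up 36.6% to 53.0% of CD45.2+ and 16.4% to 29.0% of CD45.1+ cells of the wt/wt mice. Within E/A/M cells alone, an added comparison, the 3 members were not called, with Slfn5 at 0.60, Ifi203 at 0.02 and Ly6e at 0.15, and 2 others fell, Ifitm3 (−2.27, SE 0.47) and Ifi27l2a (−0.28). Within LZ cells alone 5 rose, Mndal (1.30), Ifi203 (1.23), Ly6a (0.64), Ly6e (0.58) and Ms4a4c (0.52). The LZ class itself differed in makeup. Over all mice it held 50 LZ1-like and 1012 LZ2-like CD45.1+ cells, against 237 and 533 CD45.2+ cells, and Mndal and Ifi203 were higher in the LZ1-like cluster of both sorts. The part of this in the 5 rises was not tested. The 3 calls were also lost when a hashtag needed only 3 times the counts of the next (Slfn5 0.70, Ifi203 0.48, Ly6e 0.37), where 1 other member was called, and that of Ifi203 also with DESeq2 (0.66) and without the cells rich in other interferon-related transcripts (0.63). Leaving out a mouse changed the count to 0 (without wt/wt mouse 1), 1 (without mouse 2, Slfn5 at 0.98) or 13 (without mouse 3, 12 higher and Ifitm3 lower at −2.11). Of the pathway genes 4 of 42 were called, Irf5 (−0.39) and Ptpn6 (−0.29) lower and Irf4 (0.84) and Socs3 (1.30) higher.

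Read cell by cell, with each cell thinned to 2000 UMIs and 255 shallower cells left out, Ly6e had a UMI in 91.0% of CD45.1+ and 94.5% of CD45.2+ wt/wt E/A/M cells, as the mean over mice. Ifi27l2a followed at 67.4% and 70.6%, Mndal at 64.2% and 65.8%, Ifi203 at 61.1% and 59.0%, Ly6a at 56.0% and 56.2% and Samhd1 at 37.7% and 39.2%. The lowest shares were those of Oas1a (0.063% and 0.28%), Rsad2 (0.21% and 0.18%), Ifit1 (0.32% and 0.41%) and Ifih1 (0.55% and 0.40%). Unthinned, Ly6e was found in 99.4% and 99.9%, Mndal in 88.8% and 93.2% and Ifi203 in 84.4% and 90.3% of E/A/M cells, at median depths of 5234.5 and 5769.5 UMIs.

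The share followed the class as the level did. Mndal was found in 64.2% of CD45.1+ E/A/M cells, 17.98% of LZ, 11.05% of PC/PB and 6.27% of DZ cells after thinning, and in 65.8%, 40.3%, 17.2% and 13.4% of the CD45.2+ cells. No class here is known to lack these genes, and how much of each share came from free RNA was not tested.

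A few cells carried many other interferon-related transcripts at once. Of 32 such genes outside the member list, 5 or more were detected after thinning in 79 of 9344 cells (0.845%, exact binomial 95% interval 0.670% to 1.05%), a threshold added after seeing the data. At 2 or more the share was 31.0% (2894 cells) and at 3 or more 11.1% (1039 cells). Among E/A/M cells 15 of 666 CD45.1+ (2.25%) and 37 of 2744 CD45.2+ cells (1.35%) passed 5 genes, against 0.802% and 0.524% of LZ, 0.437% and 0.482% of DZ, and 0.145% and 0.137% of PC/PB cells. That order depended on the threshold, since at 2 or more genes CD45.1+ LZ cells (41.8%) stood above E/A/M cells (39.0%), and at 3 or more likewise (17.5% against 16.2%). In the 79 cells Ifit1 stood at 63.3 CPM, against 0.917 CPM in the other cells, and they held 10 of its 27 thinned UMIs. Isg15 stood at 215 against 13.3 CPM, Slfn5 at 297 against 14.5 CPM and Ifitm3 at 177 against 8.53 CPM, while Ly6e was 1.36 times and Samhd1 1.55 times as high. The summed member level was 1.62 to 4.51 times as high in these cells in each of the 10 combinations of mouse and sort that had any. Those combinations held only 1 to 27 such cells each, and the ratios of CD45.1+ wt/wt mouse 1 (4.29) and CD45.2+ cpm/cpm mouse 2 (2.33) rest on 1 cell. The intervals cover counting error only.

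Members with and without a response element core in the promoter were counted apart. In CD45.1+ E/A/M cells 10 of 11 tested with a core rose against 5 of 9 without one, and in CD45.2+ cells 10 of 15 against 4 of 11. In DZ cells 6 of 11 with a core fell against 7 of 9 without in CD45.1+ cells, and 10 of 15 against 7 of 11 in CD45.2+ cells. In PC/PB cells 4 rose and 4 fell of 11 with a core and 0 rose and 4 fell of 9 without in CD45.1+ cells, and 5 rose and 3 fell of 15 against 2 rose and 3 fell of 11 in CD45.2+ cells. These are counts of a few genes in families that share sequence, and the difference between members with and without a core was not tested. The counts with a core include calls given no weight above, those of Slfn5, Slfn8, Ifitm3, Ifit3 and Rsad2.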

How the data were processed

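Single-cell mRNA and hashtag libraries were made from CD45.2+ and CD45.1+ HEL+CD95+ splenic B cells on day 8, with the 10x 3′ chemistry, version 3.1. The authors mapped reads to mm10 with Cell Ranger 5.0.1 and deposited UMI counts per gene and barcode, and hashtag counts per barcode, with no normalization. The mouse and group of each hashtag came from the antibody key deposited with the series. The study used Seurat 4.0. No column of an unknown sample was left over.

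Here, Seurat 5.3.0 called hashtags (HTODemux, quantile 0.99). Of 24241 CD45.2+ and 5232 CD45.1+ mRNA barcodes, 14617 and 4857 were in both libraries. Of these, 6569 and 3294 were singlets, 8048 and 1562 were doublets and were removed, and those with 100 to 5500 genes and under 10% mitochondrial UMIs were kept. Scrublet marked only 4 and 5 further doublets and was not relied on. Both sorts were clustered together with sctransform 0.4.2 (3000 variable genes, 30 components, resolution 0.9), leaving out interferon-related and sex-linked genes, which gave 17 clusters. A cluster was named where at least 3 of the study's markers were among its top 50 genes. The members and lists were chosen with earlier results of these data known.

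UMI counts were summed per mouse, sort and class (at least 10 cells) and tested with edgeR 4.0.16 in R 4.3.3 (quasi-likelihood test, TMM, filterByExpr, Benjamini-Hochberg adjustment, threshold 0.05). The mouse was a block where the same animals gave both sides, since a hashtag marks 1 animal in both sorts. The scripts were tested on simulated data. The samples are separate recipient mice, and whether donor cells came from 1 pool is not given in the sources used here. Described by name were Irf7, Irf9, Stat2, Isg15, Usp18, Ifit1, Ifit2 and Ifit3 in every comparison that tested them, the 8 members with the largest log2 fold change in each comparison among those called and not overlapping between groups (changed the same way in every mouse for the blocked fits, on CPM with 1 added), and the 6 highest and 6 lowest members by level. Alternatives were DESeq2 1.42.0, no filter on low counts, a 3-fold hashtag rule (the highest hashtag at least 3 times the next), interferon genes kept in the clustering, resolution 0.5, removal of the 6% of cells with the highest Scrublet scores, no immunoglobulin genes, no block, and leaving out each mouse.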

Additional observations from a re-analysis of the deposited data

Results flagged for a closer look

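Within the 6 CD45.1+ mice, 95 sets of values (a member in a class) were examined for a mouse whose gap to the nearest other, divided by the whole range, passed Dixon's 95% value, and 15 did; chance gives about 1 in 20. Ifi27l2a stood out in 3 classes through wt/wt mouse 3, at 1522 CPM in E/A/M, 689 CPM in LZ and 1077 CPM in PC/PB cells. Irf9 was low in cpm/cpm mouse 3 in E/A/M cells, at 45.11 CPM, and Phf11b was low in wt/wt mouse 3 in LZ cells, at 54.8 CPM. In cpm/cpm mouse 1, DZ cells were high for Ifi203 (36.4 CPM) and Ly6e (693 CPM). The others were low members seen in 1 mouse or nearly so, namely Ifit1 in LZ (2.497 CPM), DZ (1.01 CPM) and PC/PB (0.594 CPM), Ifit2 in PC/PB (0.755 CPM), Ifit3 in LZ (7.49 CPM) and PC/PB (1.27 CPM), Rsad2 in LZ (2.96 CPM) and Slfn5 in PC/PB (0.297 CPM), and these are counts of a few UMIs.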

How the results depend on the processing

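The numbers of members called in the 6 comparisons of classes stayed within 1.5 times the reported ones under every alternative run. Leaving out 1 mouse gave 18 to 21 (E/A/M, CD45.1+), 15 to 17 (E/A/M, CD45.2+), 17 to 20 and 18 to 22 (DZ), and 13 to 16 in both sorts (PC/PB). Without the mouse as a replicate block the counts were 21 and 16, 18 and 20, and 13 and 13, the interaction stayed at 0 and the sort comparison gave 4; the block changed the direction of none of these. No paired analysis was possible for the genotype and partner comparisons because their groups hold different mice. The genotype comparison gave 2 with no filter on low counts (Ifi27l2a and Ly6a, lower), 1 in E/A/M cells alone (Ifi27l2a, −0.72), 1 in E/A/M cells under the 3-fold hashtag rule (Slfn5, 0.79), 1 in LZ cells under that rule (Ifi27l2a, −0.86), and 0 to 1 on leaving out a mouse (1 without wt/wt mouse 2, Ifi27l2a at −0.67). The partner comparison gave 2 with no filter and 0 to 1 on leaving out a mouse (1 without wt/wt mouse 2, Ifi27l2a at −0.87), and the interaction 1 in E/A/M cells alone (Ly6a, −0.74) and 0 to 1 (1 without wt/wt mouse 3, Ly6a at −0.53). The sort comparison gave 9 with no filter, 1 under the 3-fold rule, 5 in LZ cells alone, 12 in LZ cells under the 3-fold rule, 6 scaled to total UMIs, and 0 to 13 on leaving out a mouse; Ifi203 turned to −0.029 in E/A/M cells under the 3-fold rule. The settings restricted to a class, the total-UMI scaling, and the removal of cells with 5 or more reporter genes were added after seeing the data. Of 105 named results 58 were called; over their 844 alternatives 804 kept the call, 39 lost it and 1 turned, and over the 709 alternatives of the others 701 stayed without a call and 8 gained one. The cause was not tested. The genotype comparison rests on 44 to 101 CD45.2+ cpm/cpm cells per mouse, and members under 5 CPM rest on few UMIs in every comparison.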

Other observations

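A cluster with light zone, pre-plasma cell and memory markers fell in no class. It held 217 cells with a median of 1770 UMIs, 195 of them CD45.2+ wt/wt, and it carried the highest level of several members of any cluster of those cells. Ly6e averaged 2585 CPM there, Mndal 1006 CPM, Ifi203 760 CPM, Samhd1 596 CPM and Trim30a 202 CPM, while Ifi27l2a was at 336.5 CPM and Isg15 at 5.4 CPM.

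A T cell-like cluster of 106 cells was left out of the comparisons. Pooled, it held Ifi27l2a at 922 CPM, Ifi47 at 97.9 CPM, Slfn8 at 61.8 CPM and Ifit1 at 10.3 CPM, the last 3 above their mean level in any B cell class of either sort. The Ifit1 value is 4 UMIs. Slfn8 was higher, at 68.7 CPM pooled, in the cluster of 217 cells that fell in no class.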
